A study of Homo sapiens with 8 samples.

Results

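The constitutive proteasome genes were read in RNA sequencing of NB4, a cell line from human acute promyelocytic leukaemia that matures along the granulocyte path when given all-trans retinoic acid (ATRA). Members were taken by name: every RefSeq symbol made of PSM, a letter from A to G and a number, without the interferon-inducible catalytic genes PSMB8, PSMB9 and PSMB10. The rule gave 45 genes of the 22627 symbols with transcript models, and 43 of them were among the 11052 genes compared, those whose FPKM averaged 1 or more (fragment counts divided by model length and sequencing depth). The other 2, PSMA8, known from testis, and PSMB11, known from thymic epithelium, were listed at 0 in all 4 groups. By role the 43 genes were 7 alpha and 7 beta subunits of the core particle, 9 base and 8 lid subunits of the regulatory particle, 3 PA28 activator subunits, 2 other regulators and 7 assembly chaperones.

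The groups were NB4 cells with a hairpin against TFEB (shTFEB) under 1 µM ATRA, NB4 cells with a scrambled hairpin (shScr) under 1 µM ATRA, cells labelled shTFEB under ethanol vehicle, and shScr cells under ethanol vehicle, all for 72 h. Each group had 2 samples in the labels, which speak of biological replicates, 8 in all. Hairpins came by lentivirus in every group. Whether cells were cloned, and which promoter drove the hairpins, is not given in the sources used here. The titles of both shScr ATRA samples also contain the word vehicle, and the treatment field put them in their group. Wild-type NB4 cells were not analysed here.

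Each deposited table held 1 value per transcript model and group, so no spread between samples, no SD and no p-value could be computed. The words rose and fell are kept for genes where the log2 ratio of its values, each with 1 FPKM added, reached 1 in size, which is a mark of size (2-fold) and not a test. TFEB itself stood at 8.44 FPKM in shTFEB ATRA cells and 19.4 in shScr ATRA cells, and at 1.35 in cells labelled shTFEB under vehicle and 1.20 in shScr vehicle cells. The hairpin is thus visible in TFEB mRNA under ATRA and not under vehicle, and the vehicle group is called "labelled shTFEB" below. Depth relative to shScr vehicle, read from the spacing of the lowest values, was 0.911 in shTFEB ATRA, 1.05 in shScr ATRA and 1.17 in labelled shTFEB vehicle. The 7 promyelocyte and early myeloid markers MPO, ELANE, PRTN3, AZU1, CTSG, CD33 and MYB summed to 748 FPKM in shTFEB ATRA and 849.8 in shScr ATRA, against 2939 in labelled shTFEB vehicle and 4446 in shScr vehicle, most of it MPO; ELANE was listed at 0 in 3 groups and at 0.0456 FPKM in labelled shTFEB vehicle. HBB and HBA1 (red cells), MS4A1 (B cells) and COL1A2 (fibroblasts) were at 0 in all 4 groups, while KRT18, an epithelial keratin, lay between 13.9 and 29.8 FPKM. In such bulk RNA, fewer cells of a type and less RNA per cell cannot be told apart.

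The proteasome is the main protease for ubiquitin-tagged proteins. Its barrel-shaped core particle is built of outer alpha rings, which gate the entrance, and inner beta rings, of which the beta1, beta2 and beta5 subunits cut peptide bonds. The regulatory particle caps the barrel: its base holds a ring of ATPases that unfold substrates, and its lid removes the ubiquitin chain. PA28 is an alternative cap that opens the core without ATP. In cells under interferon, the PA28 subunits PSME1 and PSME2 and the immunoproteasome subunits PSMB8, PSMB9 and PSMB10 are known to be induced. This changes the peptides offered to MHC class I.

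Promoter sequences are shown for 6 members because the PA28 genes stood on opposite sides of vehicle under ATRA and because a letter match for interferon-type factors or for TFEB-type factors falls in them. They are from RefSeq (GRCh38.p14), 5′ to 3′ on the gene's strand, and capitals mark the match. In the first 2 and the last 3 it is GAAA, any 2 bases and GAAA again, on either strand, the core of an interferon-stimulated response element (ISRE), and in PSME3 it is CACGTG, an E-box of the kind TFEB binds.
PSME2, chr14:24146611-24146710, minus strand, from base -100: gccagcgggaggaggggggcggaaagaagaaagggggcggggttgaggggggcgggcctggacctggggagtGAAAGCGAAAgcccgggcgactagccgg
PSME1, chr14:24136114-24136213, plus strand, from base -80: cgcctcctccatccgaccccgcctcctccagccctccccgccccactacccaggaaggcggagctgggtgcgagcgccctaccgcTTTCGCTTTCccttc
PSME3, chr17:42833297-42833396, plus strand, from base -100: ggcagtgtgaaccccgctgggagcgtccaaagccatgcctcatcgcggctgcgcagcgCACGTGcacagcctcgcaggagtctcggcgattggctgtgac
PSMA4, chr15:78540155-78540254, plus strand, from base -250, first of its listed starts: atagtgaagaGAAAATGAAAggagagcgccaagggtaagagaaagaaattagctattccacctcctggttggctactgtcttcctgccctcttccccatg
PSMB4, chr1:151399473-151399572, plus strand, from base -100: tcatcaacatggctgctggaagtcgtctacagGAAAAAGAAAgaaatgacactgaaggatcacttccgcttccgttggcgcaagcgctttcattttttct
PSMG4, chr6:3258847-3258946, plus strand, from base -100: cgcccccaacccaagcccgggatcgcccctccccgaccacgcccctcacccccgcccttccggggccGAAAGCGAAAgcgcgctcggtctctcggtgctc

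PSME2, PSME1 and PSMG4 carry the same 10 letters, GAAAGCGAAA, on one strand or the other, starting 28 bases before, 6 bases after and 33 bases before the listed start. Both strands were searched. The window ran from 250 bases before to 50 bases after each start, and 39 of the 45 members had an entry. The ISRE letters were in 5 of these 39 genes (12.8%) and in 4.38% of the 27305 genes in the table. Of the immunoproteasome genes, PSMB8 and PSMB10 held them and PSMB9 did not. CACGTG was in 3 of 39 (PSME3, PSMB3 and PSMD9; 7.69%) and in 8.78% of all genes. TGANNNNGC is a loose spelling of the antioxidant response element, through which NFE2L1 drives proteasome genes. These letters were in 26 of 39 (66.7%) and in 47.1% of all genes. CCGGAAG, an ETS-type site, was in 15 of 39 (38.5%) and in 12.2% of all genes. The other motifs searched were CCAAT, in 19 of 39 (48.7%) and 39.7% of all genes, TTCNNNGAA, a STAT-type site, in 7 of 39 (17.9%) and 9.38%, and GCGC, any 2 bases and GCGC, a site of nuclear respiratory factor NRF1, in 7 of 39 (17.9%) and 9.98%. A match is a description of letters and no evidence of binding.

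**Figure D1:**
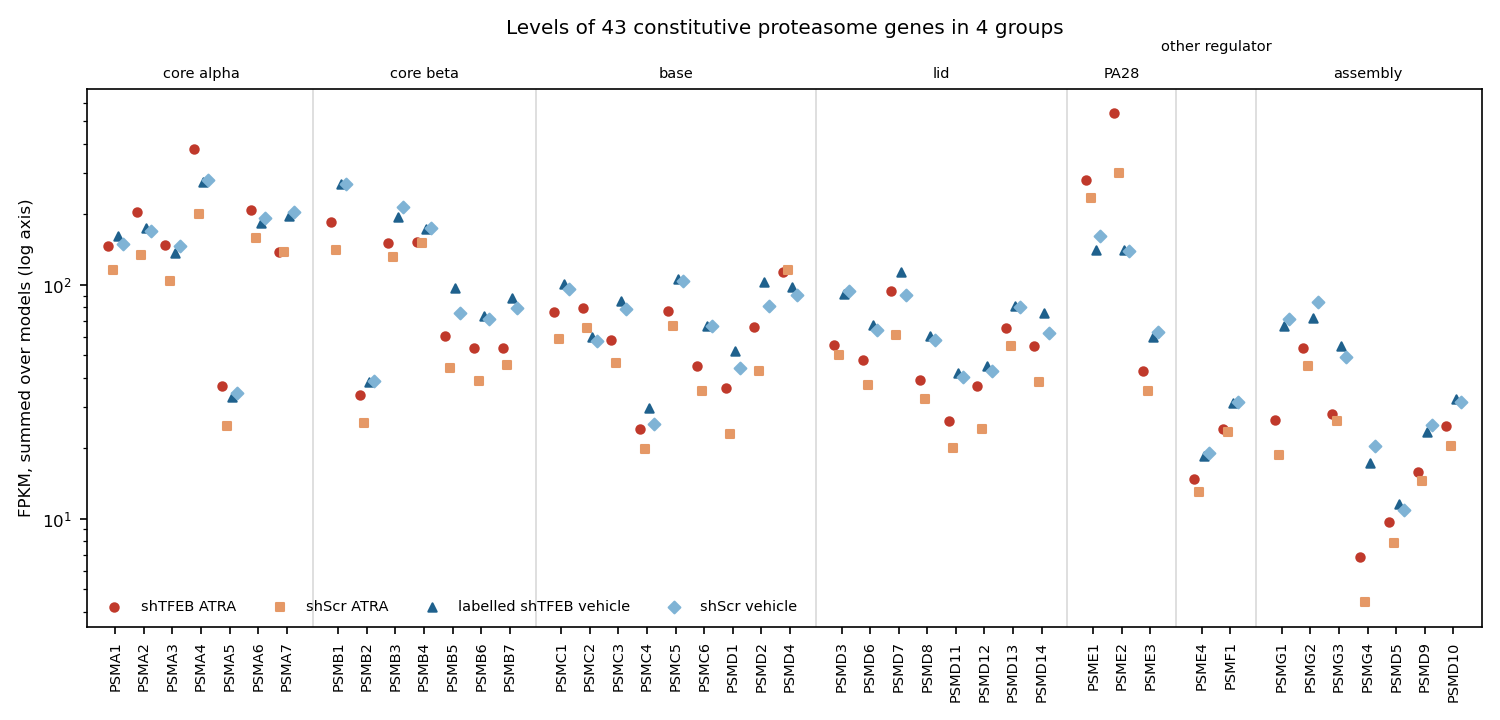
Level of each of the 43 genes (FPKM summed over transcript models, log axis) in shTFEB ATRA, shScr ATRA, labelled shTFEB vehicle and shScr vehicle cells, ordered by role; each point is the 1 deposited value of a group. PSME2 reaches 542 FPKM in shTFEB ATRA cells and PSMG4 is lowest, at 4.39 FPKM in shScr ATRA cells.

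Levels differed more between members than between groups. Alpha subunits summed to 1265 FPKM in shTFEB ATRA, 874.6 in shScr ATRA, 1161 in labelled shTFEB vehicle and 1179 in shScr vehicle cells. Beta subunits summed to 690.4, 577.1, 935.7 and 925.4 FPKM in the same groups, base subunits to 576.2, 473.3, 700.3 and 644, and lid subunits to 419.3, 318.7, 575.4 and 531.6. Both core rings need their subunits in equal number, yet the most and least abundant core mRNA were 11.3-fold apart in shTFEB ATRA cells, 8.08-fold in shScr ATRA, 8.32-fold in labelled shTFEB vehicle and 8.12-fold in shScr vehicle. PSMA4 was the highest core mRNA in every group. PSMA5 was the lowest in 3 groups, and PSMB2 in shTFEB ATRA cells. Lid mRNAs lay closer together, 3.61-fold, 3.04-fold, 2.72-fold and 2.32-fold apart in the same groups.

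Under ATRA the medians of the beta ring, base, lid and assembly chaperones lay below vehicle in both lines, and the PA28 median lay above it in both, although PSME3 of PA28 lay below and PSMC2 and PSMD4 of the base above. The alpha ring median was above vehicle in shTFEB and below it in shScr cells. In shTFEB cells 34 of 43 members stood below labelled shTFEB vehicle, beside 57.6% of all genes compared, with a median log2 ratio of -0.39 over the members and -0.13 over all genes. In shScr cells 39 of 43 stood below vehicle, beside 57.4% of all genes, with medians of -0.69 and -0.15. Few of these differences reached 2-fold. Members that fell were PSMG1 and PSMG4 in both lines, 2 of 43 each (4.65%), beside 10.5% of all genes in shTFEB and 15.2% in shScr cells. The member that rose was PSME2 in both lines, 1 of 43 (2.33%), beside 11.5% of all genes in shTFEB and 12.5% in shScr cells. The 2-fold calls over all genes in shScr cells were 45.2% upward as deposited and 56.2% after median-of-ratios rescaling.

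In shScr cells 17 members (39.5%) lay just short of the mark on the lower side, between -1 and -0.75, beside 7.17% of all genes. In shTFEB cells 1 member (2.33%) lay there, beside 7.15%. At 1.5-fold the members lower under ATRA numbered 9 of 43 (20.9%) in shTFEB cells, beside 24.4% of all genes, and 24 of 43 (55.8%) in shScr cells, beside 28.9%. Those 1.5-fold higher were PSME1 and PSME2 in shTFEB cells (beside 18.3% of all genes) and PSME2 in shScr cells (beside 19.7%). On the lower side the nearest in shScr cells was PSMD11, a lid subunit, with 26.1 FPKM in shTFEB ATRA and 41.8 in labelled shTFEB vehicle cells, and 20.1 in shScr ATRA and 40.4 in shScr vehicle cells (log2 ratios -0.66 and -0.97). Without the 1 FPKM added it stood at 49.8% of vehicle in shScr cells. Its second model was listed at 2.30 FPKM in shScr ATRA and at 0 in every other group. The main model alone, with 17.8 FPKM in shScr ATRA and 40.4 in shScr vehicle, was past the mark. The responses of the lines differ in direction of the median for no class but the alpha ring, described next.

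**Figure D2:**
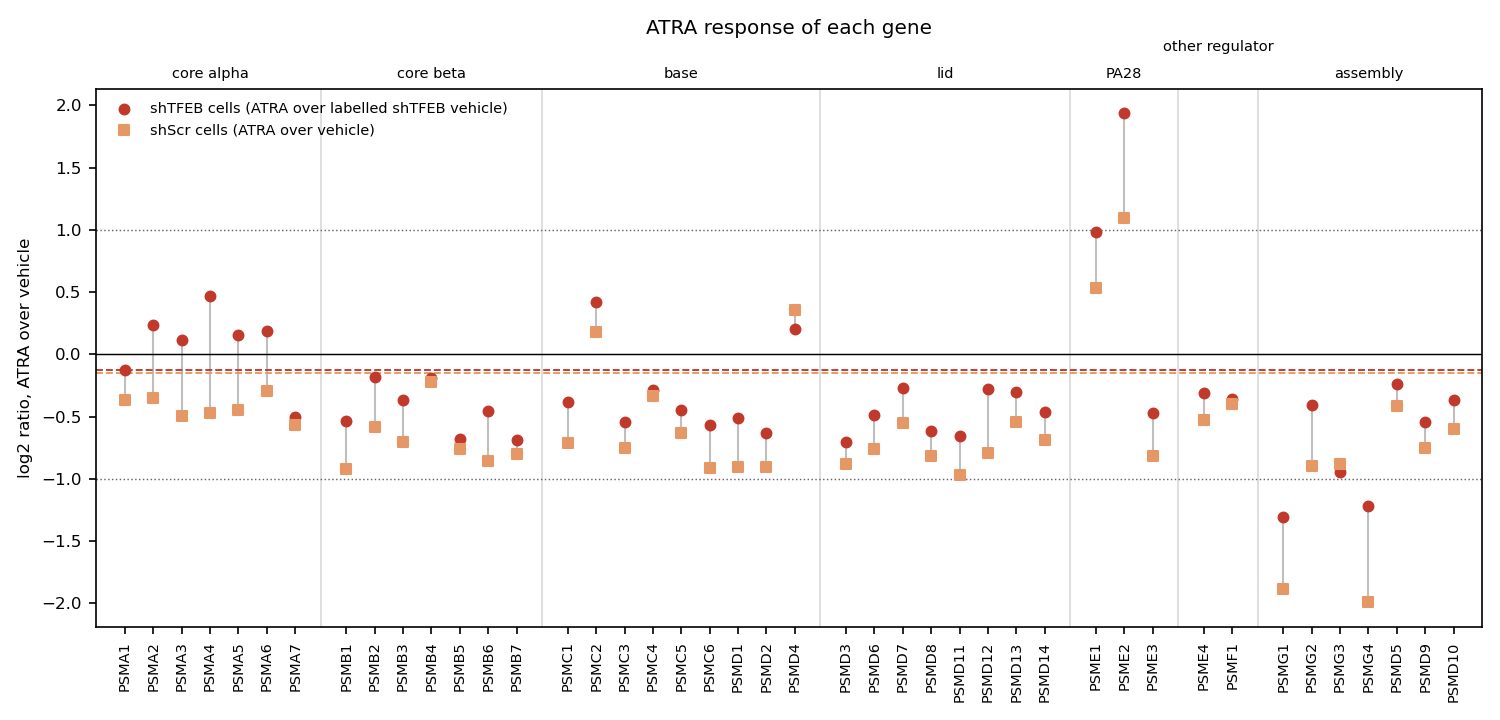
Log2 ratio of ATRA over vehicle for each of the 43 genes, in shTFEB cells (circles) and shScr cells (squares), joined per gene; dashed lines are the medians over all 11052 genes and dotted lines the 2-fold mark. PSME2 lies above the mark and PSMG1 and PSMG4 below it in both lines, and 5 alpha subunits stand above 0 in shTFEB cells and below 0 in shScr cells.

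The alpha ring was the part of the complex in which the lines parted most. PSMA4 had 381 FPKM in shTFEB ATRA, 201 in shScr ATRA, 275 in labelled shTFEB vehicle and 279 in shScr vehicle cells. PSMA2 had 205, 134, 174 and 171 FPKM, and PSMA3 had 148, 103, 137 and 146 FPKM, in the same groups. In these genes shTFEB ATRA was the highest of the 4 groups and shScr ATRA the lowest. PSMA5 (36.9, 24.9, 33.1 and 34.4 FPKM) and PSMA6 (209, 158, 184 and 194 FPKM) had the same order at the ends. Their log2 ratios of ATRA over vehicle ran from 0.11 (PSMA3) to 0.47 (PSMA4) in shTFEB cells and from -0.50 (PSMA3) to -0.29 (PSMA6) in shScr cells. The alpha ring median was 0.15 in shTFEB and -0.45 in shScr cells.

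Not all alpha subunits did so. PSMA7 had 138.2 FPKM in shTFEB ATRA, 137.8 in shScr ATRA, 197 in labelled shTFEB vehicle and 205 in shScr vehicle cells, with ATRA responses of -0.51 in shTFEB and -0.57 in shScr cells. PSMA1 had 147, 116, 161 and 149.8 FPKM in these groups (-0.13 and -0.37). No alpha subunit reached the 2-fold mark in any comparison. PSMA3 was the sum of 2 models: its second model, NM_152132, was listed at 0 in shTFEB ATRA and at 17.9, 18.9 and 17.5 FPKM in shScr ATRA, labelled shTFEB vehicle and shScr vehicle. PSMA2, PSMA3, PSMA4, PSMA5 and PSMA6 kept opposite signs in the 2 lines under both rescalings, whereas PSMA1 turned positive in shTFEB cells after median-of-ratios rescaling. Rescaling does not touch 2 other limits. PSMA2, PSMA3, PSMA5 and PSMA6 have named pseudogenes, with which fragments could have been shared, and PSMA4 has none. Against shScr vehicle in place of labelled shTFEB vehicle, PSMA3 in shTFEB ATRA was nearly level, at 147.5 and 146.4 FPKM.

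Beta subunits lay below vehicle in both lines, all 7 of them, beside 57.6% of all genes in shTFEB and 57.4% in shScr cells. Their medians were -0.46 in shTFEB and -0.76 in shScr cells. Of the catalytic ones, PSMB5, the beta5 subunit that bortezomib binds, had 60.5 FPKM in shTFEB ATRA, 44.2 in shScr ATRA, 97.3 in labelled shTFEB vehicle and 75.8 in shScr vehicle cells. PSMB6 (beta1) had 53.6, 38.8, 73.8 and 71.1 FPKM and PSMB7 (beta2) had 53.9, 45.3, 87.8 and 79.8 FPKM in these groups. Both ATRA groups were below both vehicle groups in all 3 genes, by log2 ratios of -0.68, -0.46 and -0.69 in shTFEB and -0.76, -0.86 and -0.80 in shScr cells for PSMB5, PSMB6 and PSMB7. PSMB7 lay above its deposited bounds in shTFEB ATRA (42.7 to 46.7) and shScr vehicle (63.5 to 68.3). It lay inside them in shScr ATRA (43.5 to 47.6) and labelled shTFEB vehicle (85.8 to 91.3). The size of its ratios and their order between the lines are therefore uncertain. Among the other beta subunits PSMB1 had the widest distance, 186 FPKM in shTFEB ATRA and 141 in shScr ATRA against 270.0 in labelled shTFEB vehicle and 269 in shScr vehicle cells. PSMB4 had 152, 150.3, 174 and 176 FPKM in the same groups (log2 ratios -0.19 in shTFEB and -0.22 in shScr cells), and PSMB2 had 33.6, 25.6, 38.4 and 38.9 FPKM (-0.19 and -0.58). PSMB3 had 151, 131, 194 and 215 FPKM (-0.36 and -0.71).

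The median of the beta ring was 0.61 below that of the alpha ring in the ATRA response of shTFEB cells and 0.31 below it in shScr cells, on the log2 scale. The maturation factor POMP, which joins the rings, had 128, 86.4, 127 and 131 FPKM in shTFEB ATRA, shScr ATRA, labelled shTFEB vehicle and shScr vehicle cells (log2 ratios for ATRA of 0.01 in shTFEB and -0.59 in shScr cells). Like the alpha genes named above it was lowest in shScr ATRA cells, but in shTFEB cells its ATRA and vehicle values were nearly equal.

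Each constitutive catalytic subunit has an immunoproteasome counterpart that can take its place in new particles. At the beta1 position PSMB9 made up 72.3% of the summed FPKM of PSMB9 and PSMB6 in shTFEB ATRA and 64.0% in shScr ATRA cells, against 16.8% in labelled shTFEB vehicle and 17.2% in shScr vehicle cells. At beta2 the share of PSMB10 against PSMB7 was 67.2%, 60.1%, 27.8% and 26.1%, and at beta5 the share of PSMB8 against PSMB5 was 79.7%, 75.1%, 41.7% and 43.8%, in the same groups. The immunoproteasome gene was the more abundant of each pair in both ATRA groups and the less abundant in both vehicle groups. The counterparts rose in both lines: PSMB9 had 139.6 FPKM in shTFEB ATRA and 69.0 in shScr ATRA against 14.9 in labelled shTFEB vehicle and 14.8 in shScr vehicle cells, PSMB8 had 238, 133, 69.5 and 59.0, and PSMB10 had 110.3, 68.1, 33.8 and 28.2. These are shares of mRNA per length and not of assembled particles.

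**Figure D3:**
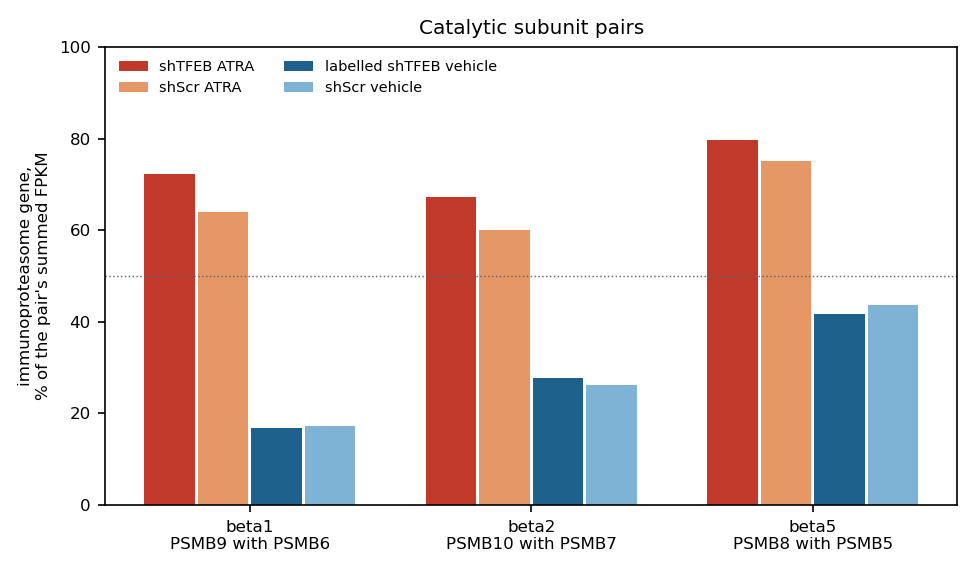
Share of the immunoproteasome gene in the summed FPKM of each catalytic pair (%, axis from 0 to 100) in shTFEB ATRA, shScr ATRA, labelled shTFEB vehicle and shScr vehicle cells; each bar is 1 deposited value and the dotted line is equal amounts. All 6 ATRA bars stand above the line, from 60.1% to 79.7%, and all 6 vehicle bars below it, from 16.8% to 43.8%.

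The base of the regulatory particle had medians of -0.45 in shTFEB and -0.71 in shScr cells under ATRA. In each line 7 of 9 members lay below vehicle, beside 57.6% of all genes in shTFEB and 57.4% in shScr cells. Among the ATPases, PSMC6 had 44.9 FPKM in shTFEB ATRA, 35.1 in shScr ATRA, 66.9 in labelled shTFEB vehicle and 67.0 in shScr vehicle cells, the lowest log2 ratios of the 6 in both lines (-0.56 and -0.91). PSMC1 had 76.6, 58.5, 100.5 and 96.3 FPKM in these groups, PSMC3 had 58.1, 46.2, 85.0 and 78.5, and PSMC5 had 77.0, 66.6, 105.6 and 103.8. PSMC4 was the scarcest, with 24.2, 19.8, 29.7 and 25.3 FPKM. In all 5 of these genes both ATRA groups were below both vehicle groups.

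PSMC2 was the ATPase that stood apart, with 79.9 FPKM in shTFEB ATRA and 65.5 in shScr ATRA, above 59.6 in labelled shTFEB vehicle and 57.7 in shScr vehicle cells (0.42 in shTFEB and 0.18 in shScr cells). PSMD4, a receptor that captures ubiquitin chains, likewise had 113 and 116 FPKM in shTFEB ATRA and shScr ATRA, above 98.1 in labelled shTFEB vehicle and 90.2 in shScr vehicle cells. Its partner receptor gene ADRM1 lay on the other side, with 57.6, 54.9, 81.1 and 76.0 FPKM in these groups. The scaffold subunits PSMD1 (36.2, 23.0, 52.0 and 44.1 FPKM) and PSMD2 (66.2, 42.9, 103.1 and 81.1 FPKM) had log2 ratios of -0.51 and -0.63 in shTFEB and -0.91 and -0.90 in shScr cells.

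All 8 lid subunits were below vehicle in both lines, beside 57.6% of all genes in shTFEB and 57.4% in shScr cells. Lid medians were -0.48 in shTFEB and -0.78 in shScr cells. PSMD14, the metalloprotease that cuts ubiquitin chains off the substrate, had 54.6 FPKM in shTFEB ATRA, 38.4 in shScr ATRA, 75.8 in labelled shTFEB vehicle and 62.5 in shScr vehicle cells. PSMD7, with which it pairs, had 94.2, 61.0, 113.6 and 90.0 FPKM, so that in shTFEB ATRA cells its level was above that of shScr vehicle. PSMD3 was lowest in its ATRA response in shTFEB cells, with 55.3, 50.3, 90.9 and 93.6 FPKM (-0.71 in shTFEB and -0.88 in shScr cells). PSMD12 had 36.8, 24.1, 44.9 and 42.6 FPKM, and PSMD13 had 65.5, 54.9, 80.8 and 80.5. PSMD6 (47.7, 37.3, 67.2 and 64.1 FPKM) and PSMD8 (39.1, 32.5, 60.4 and 58.0 FPKM) complete the list. Both ATRA groups were below both vehicle groups in all of these but PSMD7.

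Set against the core median, the base median was 0.26 lower in shTFEB and 0.18 lower in shScr cells, and the lid median 0.29 and 0.25 lower. These distances are small beside the range within the core, from -0.69 to 0.47 in shTFEB and from -0.93 to -0.22 in shScr cells. Without the 21 members that have a named pseudogene the base median was 0.042 above the core median in shScr cells, and against shScr vehicle in place of labelled shTFEB vehicle it was 0.083 below it in shTFEB cells.

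PA28 was the class whose median lay above vehicle in both lines, through PSME1 and PSME2. PSME2 (chromosome 14, 24612574 to 24615855 in hg19) had 542 FPKM in shTFEB ATRA and 299 in shScr ATRA, against 141 in labelled shTFEB vehicle and 139.9 in shScr vehicle cells. It rose 3.85-fold in shTFEB and 2.14-fold in shScr cells (log2 ratios 1.94 and 1.09). PSME1, which encodes the alpha subunit of the same ring and lies 4397 bases away, had 280.0, 235, 141 and 162 FPKM in these groups. Its log2 ratios were 0.98 in shTFEB and 0.53 in shScr cells, and the value in shTFEB cells passed the mark after either rescaling, at 1.13 with median of ratios. Both genes were above both vehicle groups in both ATRA groups. PSME2 has 6 named pseudogenes, between which and PSME2 fragments could have been split.

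The balance of the 2 PA28 mRNAs moved with them. PSME2 over PSME1 was 1.94 in shTFEB ATRA and 1.28 in shScr ATRA, against 0.996 in labelled shTFEB vehicle and 0.864 in shScr vehicle cells. Together they summed to 822.1 FPKM, 533.8, 282.3 and 301.9 in these groups. PSME3, the nuclear PA28 gamma subunit that forms its own ring, had 42.8 FPKM in shTFEB ATRA and 35.2 in shScr ATRA, against 59.7 in labelled shTFEB vehicle and 63.0 in shScr vehicle cells (-0.47 and -0.82), on the side of the core genes. PSME1 and PSME2 carry the ISRE letters printed above and PSME3 the E-box letters. PSME3 also holds CCAAT and the STAT-type letters, the latter starting 230 bases before its listed start. The other members with E-box letters, PSMB3 and PSMD9, had log2 ratios of -0.36 and -0.54 in shTFEB and -0.71 and -0.75 in shScr cells. That is the side on which 34 of 43 members stood in shTFEB and 39 in shScr cells. PSMA4, PSMB4 and PSMG4 hold the ISRE letters too and had log2 ratios of 0.47, -0.19 and -1.22 in shTFEB and -0.47, -0.22 and -1.99 in shScr cells, so the letters alone went with no single direction. The PA28 median over its 3 genes, which is the value of PSME1, was 1.17 above the core median in shTFEB and 1.06 above it in shScr cells.

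The other regulators were scarce. PSME4, the ATP-independent cap PA200, had 14.8, 12.9, 18.6 and 19.1 FPKM in shTFEB ATRA, shScr ATRA, labelled shTFEB vehicle and shScr vehicle cells. PSMF1, which encodes the inhibitor PI31, had 24.1, 23.5, 31.3 and 31.4 FPKM. Both were below both vehicle groups under ATRA, short of the mark.

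The assembly chaperones had the largest falls. PSMG1, which with PSMG2 starts the alpha ring, had 26.3 FPKM in shTFEB ATRA and 18.7 in shScr ATRA, against 66.7 in labelled shTFEB vehicle and 71.7 in shScr vehicle cells. It stood at 39.5% of the labelled shTFEB vehicle level in shTFEB and 26.1% of the vehicle level in shScr cells (log2 ratios -1.31 and -1.88). PSMG4, which acts with PSMG3, had 6.88, 4.39, 17.4 and 20.4 FPKM, which is 39.6% and 21.5% of vehicle (-1.22 and -1.99). Both fell in both lines. In PSMG4, 1 of 3 models, NM_001135750, was listed at 0 in both ATRA groups and at 4.21 FPKM in labelled shTFEB vehicle and 5.22 in shScr vehicle cells; with the highest model alone the ratio in shTFEB cells was -0.92, and with 5 FPKM added -0.91, both short of the mark.

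PSMG2 had 53.9, 44.9, 71.9 and 84.7 FPKM in shTFEB ATRA, shScr ATRA, labelled shTFEB vehicle and shScr vehicle cells, and PSMG3 had 27.9, 26.1, 54.7 and 49.0. Their log2 ratios were -0.41 and -0.94 in shTFEB and -0.90 and -0.88 in shScr cells, so partners of 1 dimer did not move by equal amounts. The main model of PSMG2 alone was past the mark in shScr cells, with 30.1 FPKM under ATRA and 65.4 under vehicle. PSMD5, PSMD9 and PSMD10, which escort the ATPases during base assembly, had lesser distances, from -0.54 to -0.23 in shTFEB and from -0.75 to -0.42 in shScr cells. PSMD10 (gankyrin) had 25.0, 20.4, 32.5 and 31.5 FPKM in the same groups, PSMD9 had 15.9, 14.5, 23.6 and 25.1, and PSMD5 had 9.69, 7.90, 11.6 and 10.9.

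**Figure D4:**
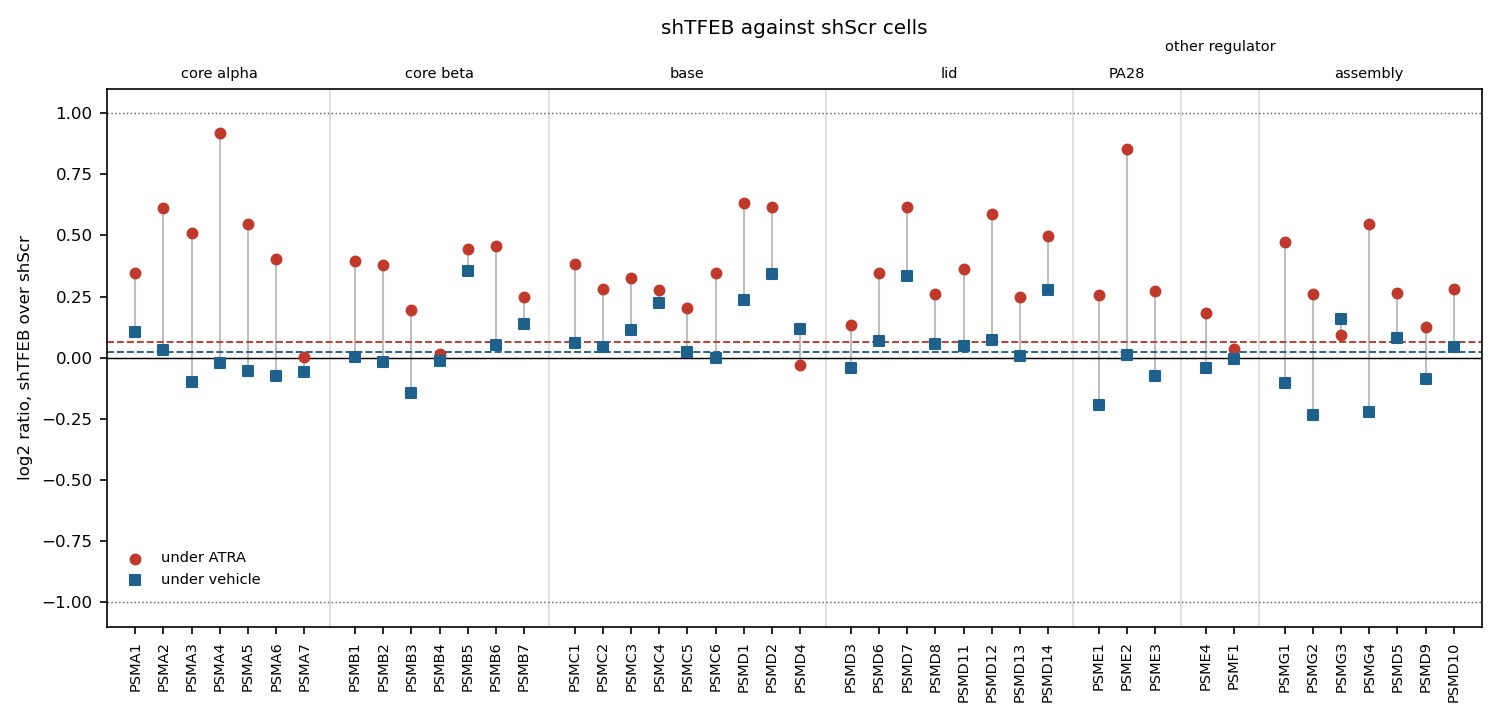
Log2 ratio of shTFEB over shScr cells for each of the 43 genes, under ATRA (circles) and under vehicle (squares, cells labelled shTFEB), joined per gene; dashed lines are medians over all 11052 genes and dotted lines the 2-fold mark. Under ATRA 42 of 43 points lie above 0, and no point reaches the mark.

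The hairpin comparison shares its groups with the ATRA responses above, so it holds the same values in another arrangement. Under ATRA no member reached 2-fold, higher (beside 2.67% of all genes) or lower (1.58%). The ratios were nevertheless nearly all on one side: 42 of 43 members stood above their shScr value in shTFEB cells, beside 58.9% of all genes, with a median log2 ratio of 0.35 over members and 0.06 over all genes. PSMD4 was the exception, at -0.03. At 1.5-fold 7 of 43 members (16.3%) were higher, beside 7.26% of all genes, namely PSMA2, PSMA4, PSMD1, PSMD2, PSMD7, PSMD12 and PSME2, and none was lower, beside 4.02%. PSMA4 was highest at 0.92 and PSME2 next at 0.86. After median-of-ratios rescaling 39 members remained above 0, with PSMA7, PSMB4 and PSMF1 changing sign, and after upper-quartile rescaling 38, with PSMG3 changing as well.

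By class the medians under ATRA were 0.51 for the alpha ring, 0.38 for the beta ring, 0.32 for the base, 0.35 for the lid, 0.27 for PA28 and 0.26 for the assembly chaperones. PA28 holds 3 genes, so its median is the value of 1 gene. That gene was PSME3 in both hairpin comparisons, and PSME1 in both ATRA responses and their difference. PSME2 stood at 0.86 and PSME1 at 0.25 for the hairpin under ATRA. The 6 ATPases ran from 0.20 to 0.38 and the alpha ring from 0.00 in PSMA7 to 0.92 in PSMA4. Under vehicle, where TFEB mRNA was not lower in the labelled shTFEB group, no member reached 2-fold higher (beside 1.06% of all genes) or lower (0.787%), nor 1.5-fold higher (2.52%) or lower (1.76%). The member median was 0.02 and the median of all genes 0.02, with 25 of 43 members above 0, beside 55.6% of all genes. PSMB5, at 0.36, was the highest of them and PSMG2, at -0.23, the lowest.

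Under vehicle the medians by class were -0.06 for the alpha ring, 0.00 for the beta ring, 0.11 for the base, 0.06 for the lid, -0.08 for PA28 and -0.09 for the assembly chaperones.

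The difference of the ATRA responses, shTFEB minus shScr, had a median of 0.28 over the members and 0.04 over all genes, and was above 0 in 41 of 43, beside 56.1% of all genes. PSMD4 (-0.15) and PSMG3 (-0.06) were below 0, beside 43.9%. After median-of-ratios rescaling 40 were above 0, with PSMB4 changing sign, and after upper-quartile rescaling 36, with PSMA7, PSMB4, PSMB5, PSMC4 and PSMF1 changing sign and the median of all genes at -0.050. It reached 2-fold in no member (beside 2.42% of all genes higher and 1.86% lower) and 1.5-fold in 5, PSMA3, PSMA4, PSMA5, PSME2 and PSMG4 (11.6% of members, beside 5.86% of all genes), all upward; 1.5-fold downward held none, beside 4.63%. By class its median was 0.58 in the alpha ring, 0.45 in PA28, 0.34 in the beta ring, 0.26 in the lid, and 0.24 in the base and in the assembly chaperones. The choice of vehicle group bears on it: against shScr vehicle in place of labelled shTFEB vehicle, the member median of the ATRA response in shTFEB cells was -0.32 and not -0.39.

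**Figure D5:**
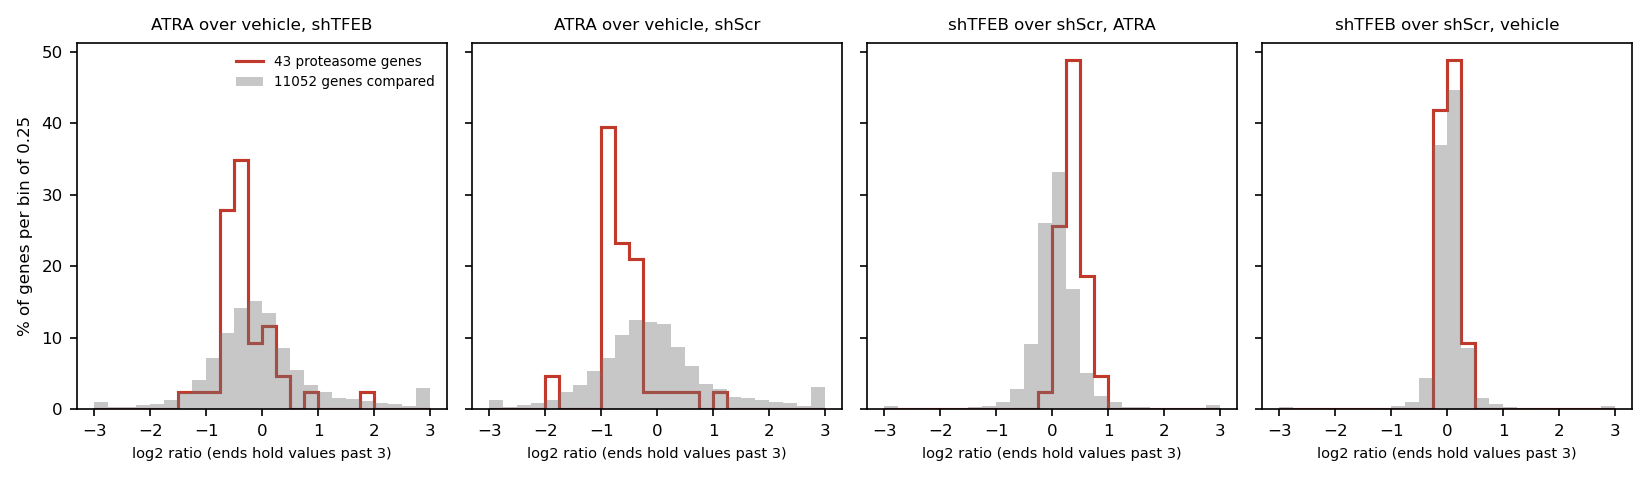
Distribution of log2 ratios (share of genes per bin of 0.25, %) of the 43 proteasome genes (line) and of all 11052 genes compared (grey) in the 4 comparisons, with values past 3 in the end bins. Under ATRA the proteasome genes lie left of the bulk in both lines, more so in shScr cells, and in the shTFEB over shScr panel under ATRA they lie to its right; under vehicle they lie within it.

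Partner genes were read from a list. Of 39 listed genes that assemble, feed, edit or transcribe it, 38 were compared. None rose under ATRA, beside 11.5% of all genes in shTFEB and 12.5% in shScr cells. Those that fell were UCHL5 in shTFEB cells, 1 of 38 beside 10.5% of all genes, and UCHL5, USP14, NGLY1 and TXN in shScr cells, 4 of 38 beside 15.2%. The partner medians were -0.30 in shTFEB and -0.29 in shScr cells. UCHL5, a deubiquitinase held on the regulatory particle by ADRM1, had 33.5 FPKM in shTFEB ATRA and 16.1 in shScr ATRA, against 70.8 in labelled shTFEB vehicle and 66.8 in shScr vehicle cells. It was also the partner that rose in shTFEB against shScr cells under ATRA (log2 ratio 1.01).

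USP14, the other deubiquitinase bound to the cap, had 21.7, 15.5, 32.8 and 33.3 FPKM in shTFEB ATRA, shScr ATRA, labelled shTFEB vehicle and shScr vehicle cells. NGLY1, the glycanase that processes NFE2L1, had 12.5, 10.1, 20.5 and 22.2 FPKM, and TXN, thioredoxin, had 189, 151, 342 and 390.5. Each was lowest in shScr ATRA cells. NFE2L1, the factor that raises proteasome genes when the protease is inhibited, had 28.9, 26.5, 32.8 and 25.0 FPKM, with ATRA log2 ratios of -0.18 in shTFEB and 0.08 in shScr cells. Its relative NFE2L2 had 38.6, 37.6, 29.3 and 21.8 FPKM (0.39 and 0.76), short of the mark but upward in both lines. SEM1, the smallest lid protein, had 297, 310.2, 349 and 373 FPKM, and the segregase gene VCP, which hands unfolded substrates over, had 195, 139.7, 260.0 and 209.

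The 5 genes whose 4-group profile lay closest to the mean core profile, among 7995 genes with a mean of at least 5 FPKM and none at 0, were GZF1, RRP12, NCAPH2, CBX6 and KIF18A. Likeness was the Euclidean distance of centred log2 values over 4 groups, from 0.0197 (GZF1) to 0.0415 (KIF18A). With 4 points this describes these tables only. RRP12, for example, had 30.8 FPKM in shTFEB ATRA, 23.7 in shScr ATRA, 35.9 in labelled shTFEB vehicle and 34.8 in shScr vehicle cells.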

How the data were processed

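RNA of 8 samples was made into TruSeq libraries, per the labels' protocols. Per the submitters' processing notes TopHat, Cufflinks and Cuffdiff were used with hg19; versions and how the 2 samples of a group were combined are not given in the sources used here. The authors deposited FPKM in 4 tables of 65986 models, each with 1 value and 2 bounds per model and group. FPKM were summed per symbol without further normalisation. Symbols came from RefSeq (GRCh38.p14), which matched 39841 of 41159 accessions (96.8%).

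Ratios were log2((FPKM + 1)/(FPKM + 1)). The deposited bounds held the FPKM of 26 to 27 of the 43 members per group, so no value in the Results was called by them. Their widths did set the log2 tolerances used for the alternatives. FPKM over the midpoint of the bounds ran from 0.987 (PSMA4) to 1.35 (PSMB3), so levels between genes carry that uncertainty, and within a gene it differed between groups by a median of 0.344% (at most 22.1%, PSMB7). Precision from depth could not be given beyond the relative depth. All 90 member models had status OK, 54 of them above 0, and 10 members had several models above 0. Named pseudogenes exist for 21 members, and PSMA3, PSMB7, PSMC5 and PSMG2 overlap another compared gene, so their counts may be shared.

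All members were accounted for; 4-group values were given by a fixed rule (catalytic, PA28, inhibitor and ATPase genes, PSMD4 and PSMD14, class extremes, partners past the mark), and other members' values were added. Members and lists were chosen with earlier results of these data known. One marker gene of the lists is not reported here. The calculation was tested on simulated data. Alternatives were another pseudocount, filter, mark, scaling or model choice, and non-overlap of the deposited bounds added to the mark. Tools were Python 3.11.15, numpy 2.4.6, pandas 2.3.3 and matplotlib 3.10.9.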

Additional observations from a re-analysis of the deposited data

Results flagged for a closer look

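In 5 alpha subunit genes the ATRA response had opposite signs in the lines, upward in shTFEB and downward in shScr cells. The response in shTFEB minus that in shScr cells, on the log2 scale, was 0.58 for PSMA2, 0.61 for PSMA3, 0.94 for PSMA4, 0.60 for PSMA5 and 0.48 for PSMA6. With 1 value per group the difference was not tested, and none of the 10 responses reached 2-fold. Of the 5 genes, PSMA4 alone has no named pseudogene. The promyelocyte markers, depth and TFEB mRNA that differ between the groups are given in the opening, and their part in these values was not tested.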

How the results depend on the processing

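No paired analysis was possible because the tables hold 1 pooled value per group, and for the same reason no replicate could be left out. Of 486 alternative values 399 stayed within tolerance (from 0.0562 to 0.0922 on the log2 scale, by comparison, or 1.5 times for a count) and 87 moved. The log2 tolerances come from the widths of the deposited bounds. Part of the 399 could not move, so the count is no measure of stability. All member models had status OK, and a filter does not enter the ratio of a single gene. Rescaling shifts all classes nearly alike, so it hardly enters a difference between classes. No value past the 2-fold mark changed sign, but 4 small ones did: base minus core in shScr ATRA, given below, lid minus core for the hairpin under ATRA (0.018 with the highest model), and the member median for the hairpin under vehicle (-0.0041 with median of ratios and -0.0091 without members that have a named pseudogene). Rescaling shifted the median of all genes by 0.146 (median of ratios) and 0.117 (upper quartile) in the ATRA response of shScr cells and by 0.126 (median of ratios) in that of shTFEB cells; the members minus all genes were -0.54, -0.51 and -0.52 in shScr, and -0.26, -0.24 and -0.26 in shTFEB cells, as deposited, with median of ratios and with upper quartile. The member median was -0.51 with median of ratios and -0.55 with upper quartile in shScr ATRA, -0.24 with median of ratios in shTFEB ATRA, and with upper quartile 0.24 for the hairpin under ATRA and 0.18 for the response difference. The count 2-fold higher in shTFEB ATRA was 2 under either rescaling. With a 1.5-fold mark the members higher were 2 in shTFEB ATRA and 7 for the hairpin under ATRA, and those lower 9 in shTFEB ATRA and 24 in shScr ATRA. With the highest model 1 was lower in shTFEB ATRA and 4 in shScr ATRA, PA28 minus core was 1.24 and base minus core -0.20 in shTFEB ATRA. With 5 FPKM added 1 was lower in shTFEB ATRA. The remaining settings were chosen after seeing the data. With shScr vehicle as the denominator of shTFEB ATRA the member median was -0.32, and PA28, base and lid minus core were 0.99, -0.083 and -0.15. Without members that have a named pseudogene, 0 members were 2-fold higher in either ATRA response, because PSME2 was among those left out; the member median was -0.45 in shTFEB and -0.76 in shScr ATRA, PA28 minus core was 0.58 in shTFEB ATRA, 0.53 in shScr ATRA and -0.13 for the hairpin under vehicle, base minus core was -0.13, 0.042 and 0.23 in the same order, and lid minus core was -0.15 in shScr ATRA and -0.12 for the hairpin under ATRA. Except where a choice left members out, the cause was not tested.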
